A study of Naumovozyma castellii with 10 samples.

Results

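XUT0939 is a long non-coding RNA of the budding yeast Naumovozyma castellii that lies antisense to amino acid permease genes on chromosome 9. It was described together with every mRNA that overlaps it on the opposite strand by at least 1 nt, namely BAP2 and TAT1, which gives 3 of the 8407 annotated features that were analysed. XUT0939 itself was chosen by its small RNA densities in these libraries, and which of them counted is not recorded, so its values and fold changes are given as a description, without a p-value. BAP2 and TAT1 entered through their position opposite it and not through values of their own, and their fold changes are given with the test that was run over all features. Because XUT0939 was chosen with these comparisons known, those tests are not independent evidence about the locus.

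Small RNAs were sequenced in 10 libraries that fall into 5 groups of 2 biological replicates per the labels, all from MATalpha ura3-1 ho cells grown at 25 °C. The groups were dcr1 upf1 (dcr1 upf1::kanMX6, untreated), dcr1 CHX (dcr1, given cycloheximide), upf1 (upf1::kanMX6, untreated), WT CHX (the parental genotype, given cycloheximide) and WT (the parental genotype, untreated). Cycloheximide (CHX), which blocks translation elongation, was added at 100 µg/mL for 15 min. Each genotype is a single strain, and an untreated dcr1 strain and CHX-treated upf1 cells were not analysed here. The values are densities, that is, reads per nucleotide of a feature, which the authors scaled to a spike-in of Schizosaccharomyces pombe small RNAs. They refer to total RNA of the culture, so a change per cell was not measured.

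Dicer, the product of DCR1, is an RNase III enzyme that cuts double-stranded RNA into small RNAs, and N. castellii is among the budding yeasts that have kept it. XUTs are non-coding transcripts that accumulate when the cytoplasmic 5′ to 3′ exonuclease Xrn1 is missing. Upf1 is the helicase at the core of nonsense-mediated decay (NMD), a pathway that depends on translation and removes transcripts on which ribosomes stop early, and both loss of Upf1 and CHX impair it. In Saccharomyces cerevisiae, Bap2 is a plasma membrane permease for branched-chain amino acids and Tat1 a related permease for tyrosine and other amino acids. Genes of this family are controlled there by the amino acid supply outside the cell through the sensor Ssy1.

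The Dicer-deficient libraries held 129559 to 148330 reads over all features and the Dicer-proficient libraries 3169072 to 6904640. The factors that scale reads to the spike-in were 0.349 to 0.529 in the 4 Dicer-deficient libraries, against 0.485 to 1 in the 6 Dicer-proficient ones. UPF1, listed as NAM7, had 0 reads in the 4 libraries that lack it and 3 to 45 reads in the other 6. The DCR1 locus was not checked here.

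XUT0939 runs on the minus strand of chromosome 9 from 286184 to 288697, over 2514 nt, in the coordinates of the deposited annotation. BAP2 (NCAS_0I01530, plus strand, 286882 to 288669) lies whole inside it and is opposite 71.1% of its length. TAT1 (NCAS_0I01520, plus strand, 284348 to 286192) comes to within XUT0939 by its last 9 nt only, 0.488% of its 1845 nt. BAP2 and TAT1 are thus tandem neighbours on the plus strand, and XUT0939 spans BAP2, the stretch between them and the very end of TAT1. A second non-coding annotation, CUT1233 (a cryptic unstable transcript, minus strand, 287128 to 288694), is nested in XUT0939 on the same strand, so its values are not independent of those of XUT0939 if reads were counted for both, which the files do not state. The mRNA intervals are coding sequences, so overlaps and densities of mRNAs here leave out untranslated ends. Their coordinates are those of RefSeq assembly ASM23734v1.

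**Figure D1:**
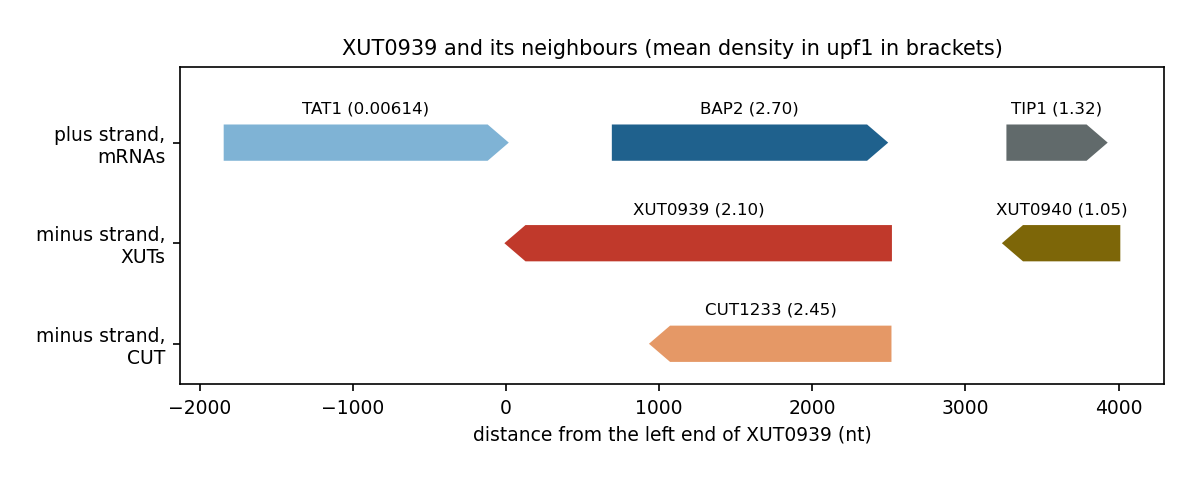
Map of the locus, drawn to scale as distance in nt from the left end of XUT0939, with mRNAs on the plus strand above and the non-coding annotations on the minus strand below; brackets give the mean density in upf1. BAP2 (2.70) and XUT0939 (2.10) are alike in density, and TAT1 (0.00614), whose coding sequence meets XUT0939 at 9 nt only, is far below both.

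BAP2 and XUT0939 carried small RNAs at similar density, on opposite strands, and TAT1 had few. In WT, XUT0939 had densities of 0.446 and 0.487, from 2315 and 2140 reads. BAP2 had 0.569 and 0.575 in WT, from 2098 and 1800 reads. TAT1 had 0.00342 and 0.00310 in WT, from 13 and 10 reads. By mean density in WT XUT0939 was 37th of 1021 XUTs and BAP2 41st of 5600 mRNAs, whereas TAT1 was 3764th, below the median mRNA at 0.00632. BAP2 exceeded TAT1 per nucleotide by 176 ± 13.6 times in WT (SD, n = 2).

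Loss of UPF1 went with several-fold more small RNA on both strands. XUT0939 had densities of 2.06 and 2.14 in upf1, from 6835 and 7907 reads, against 0.446 and 0.487 in WT. Both upf1 libraries lay above both WT libraries, by 4.23 to 4.79 times over the 4 pairs of libraries. On the log2(density + pseudocount) scale used for all fold changes here, with a pseudocount of 0.00145, the fold change was 2.17 (SE 0.12). BAP2 had 2.69 and 2.70 in upf1, from 6369 and 7113 reads, against 0.569 and 0.575 in WT. This rise had a log2 fold change of 2.24 (SE 0.11, limma adjusted p = 4.82e-06), and its replicates were closer together than those of XUT0939. TAT1 had 0.00492 and 0.00737 in upf1, from 12 and 20 reads, against 0.00342 and 0.00310 in WT. The libraries did not overlap, but the log2 fold change of 0.67 (SE 0.35, limma adjusted p = 0.141) was not called, and it was 0.44 without upf1 replicate 2.

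Most features were higher in upf1, so the background has to be read beside these values. Of 7879 features tested, 58.4% were called at an adjusted p of 0.05, 57.7% higher and 0.622% lower. The median feature had a log2 fold change of 1.198. Relative to that median XUT0939 stood at 0.97, BAP2 at 1.04 and TAT1 at -0.53. Among XUTs alone XUT0939 was in the middle of the range, with 470 of 950 tested XUTs showing a larger rise. BAP2 was nearer the upper end among mRNAs, with 1005 of 5366 rising more. When the libraries were instead set to equal mRNA medians, which turned the counts over all features to 2155 higher and 939 lower, XUT0939 kept a fold change of 0.97 and BAP2 of 1.04, and TAT1 turned negative at -0.52 without passing the test.

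**Figure D2:**
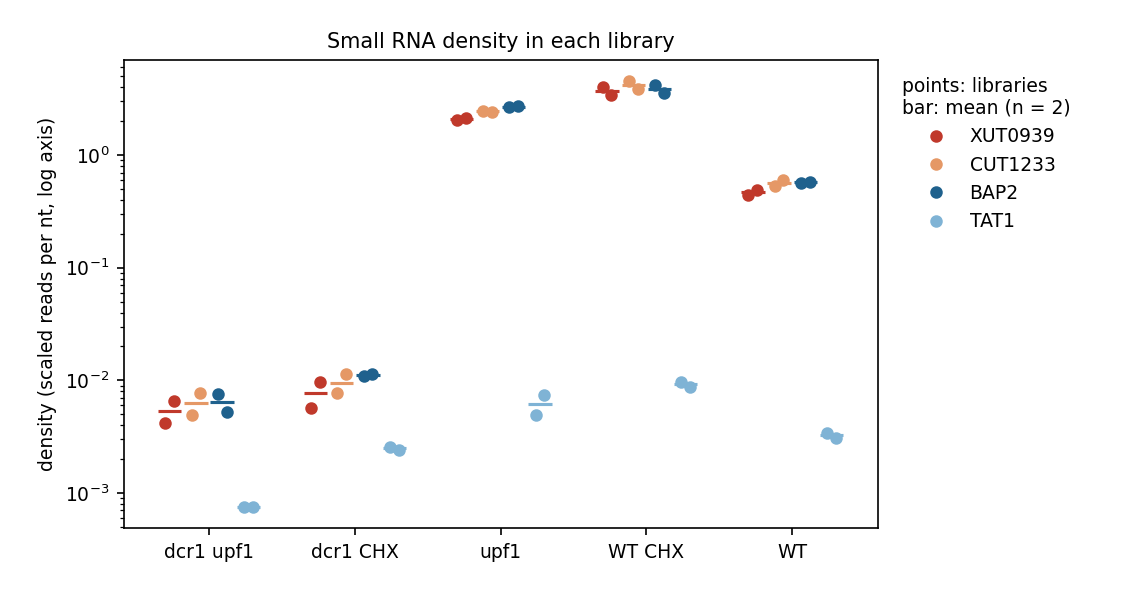
Density of XUT0939, CUT1233, BAP2 and TAT1 (scaled reads per nt, log axis) in each of the 10 libraries, as points, with the group mean as a bar (n = 2). The 2 libraries of each Dicer-proficient group sit close together for XUT0939 and BAP2, in the order WT CHX, upf1, WT from high to low, and TAT1 stays below 0.01 throughout.

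Cycloheximide gave the highest level of the locus. XUT0939 had densities of 4.004 and 3.39 in WT CHX, from 10067 and 13088 reads, against 0.446 and 0.487 in WT. This is 6.96 to 8.97 times over the pairs of libraries, with a log2 fold change of 2.98 (SE 0.12). BAP2 had 4.15 and 3.53 in WT CHX, from 7421 and 9692 reads, against 0.569 and 0.575 in WT. The rise of BAP2 had a log2 fold change of 2.74 (SE 0.11, limma adjusted p = 6.54e-05). TAT1 had 0.00976 and 0.00881 in WT CHX, from 18 and 25 reads, against 0.00342 and 0.00310 in WT. TAT1 passed the test here, with a log2 fold change of 1.19 (SE 0.35, limma adjusted p = 0.0175). That call was lost without WT replicate 2 (limma adjusted p = 0.0638), without WT CHX replicate 1 (limma adjusted p = 0.0691) and with scaling on tRNA, rRNA and snoRNA (limma adjusted p = 0.0642).

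The background was higher still with CHX. Of the 7879 features 77.2% were called, 77.1% higher and 0.165% lower, and the median change was 1.505 on the log2 scale. TAT1 was thus called along with most features, at -0.32 relative to their median, with XUT0939 at 1.47 and BAP2 at 1.23. Only 41 of 950 XUTs rose more than XUT0939, and 535 of 5366 mRNAs rose more than BAP2. By level XUT0939 was 25th of 1021 XUTs in WT CHX, against 37th in WT, and BAP2 was 17th of 5600 mRNAs, against 41st. With equal mRNA medians, under which 717 features were called higher and 1202 lower, the fold changes were 1.23 for XUT0939, 0.99 for BAP2 and -0.56 for TAT1, and that of TAT1 did not pass the test.

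Set directly against each other, upf1 was the lower of the 2 conditions for XUT0939, whereas most XUTs leaned the other way. The upf1 libraries had 2.06 and 2.14 and the WT CHX libraries 4.004 and 3.39, without overlap, a log2 fold change of -0.81 (SE 0.12). The median XUT had a positive value of 0.76 in this comparison, and 114 of 950 XUTs lay below XUT0939. BAP2 had 2.69 and 2.70 in upf1 against 4.15 and 3.53 in WT CHX, and a log2 fold change of -0.50 (SE 0.11, limma adjusted p = 0.0113), in a comparison in which 45.8% of features were called, 24.0% lower and 21.8% higher. This call did not hold without upf1 replicate 1 (limma adjusted p = 0.0671), without upf1 replicate 2 (limma adjusted p = 0.0655) or with all 10 libraries in the fit (limma adjusted p = 0.0728). With equal mRNA medians, which moved the counts to 2565 higher and 873 lower, the value was -0.25 for XUT0939 and turned to 0.06 for BAP2. TAT1 had 0.00492 and 0.00737 in upf1 against 0.00976 and 0.00881 in WT CHX, and its log2 fold change of -0.52 (SE 0.35, limma adjusted p = 0.262) was not called, with -0.28 without upf1 replicate 1.

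**Figure D3:**
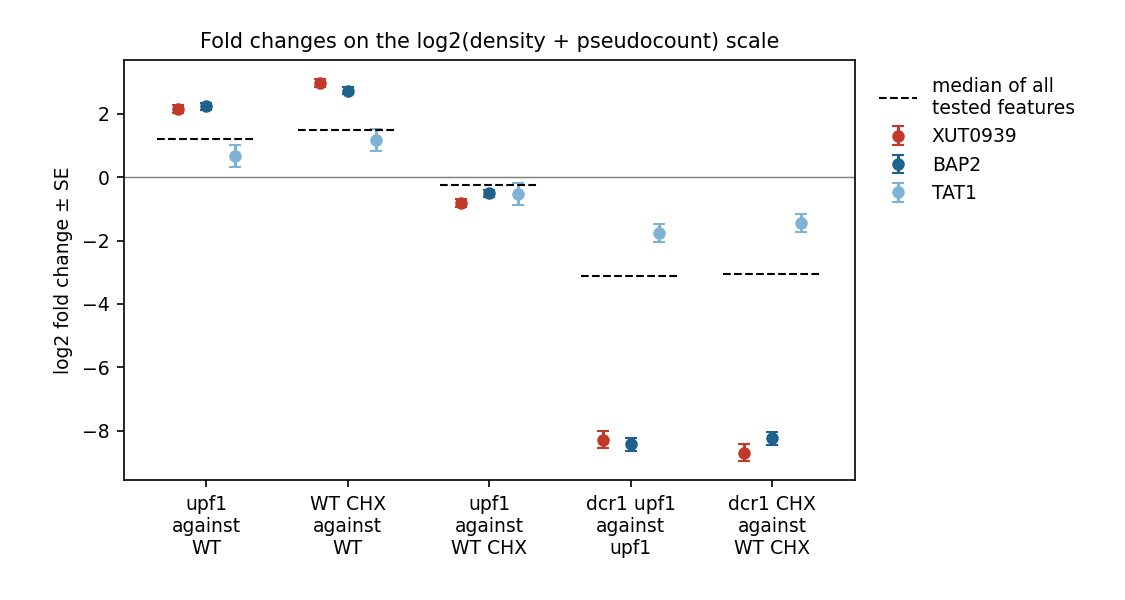
Log2 fold change ± SE of XUT0939, BAP2 and TAT1 in the 5 comparisons, on the log2(density + pseudocount) scale, with the median of all tested features as a dashed line. XUT0939 and BAP2 lie above the median for upf1 and for WT CHX against WT and more than 5 below it in both Dicer comparisons, where TAT1 lies above the median. TAT1 started too near the pseudocount to fall as far as that median.

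Without Dicer the small RNAs of XUT0939 and BAP2 fell to traces. XUT0939 had 0.00417 and 0.00652 in dcr1 upf1, from 30 and 47 reads, against 2.06 and 2.14 in upf1. That is 0.255% of the upf1 level, and a log2 fold change of -8.29 (SE 0.26). BAP2 had 0.00762 and 0.00526 in dcr1 upf1, from 39 and 27 reads, against 2.69 and 2.70 in upf1. BAP2 fell to 0.239% of its upf1 level (log2 fold change -8.44, SE 0.20, limma adjusted p = 1.37e-09). TAT1 had 0.000758 and 0.000756 in dcr1 upf1, from 4 reads in each library, against 0.00492 and 0.00737 in upf1. TAT1 kept 12.3% of its density and had a log2 fold change of -1.77 (SE 0.27, limma adjusted p = 0.000214).

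The same loss was seen among CHX-treated cells. XUT0939 had 0.00568 and 0.00963 in dcr1 CHX, from 27 and 49 reads, against 4.004 and 3.39 in WT CHX, and so 0.207% of that level (log2 fold change -8.70, SE 0.26). BAP2 had 0.0109 and 0.0113 in dcr1 CHX, from 37 and 41 reads, against 4.15 and 3.53 in WT CHX. BAP2 fell by 8.25 on the log2 scale (SE 0.20, limma adjusted p = 6.31e-09). TAT1 had 0.00258 and 0.00241 in dcr1 CHX, from 9 reads in each library, against 0.00976 and 0.00881 in WT CHX, with a log2 fold change of -1.44 (SE 0.27, limma adjusted p = 0.000783). The Dicer effects in upf1 and in CHX-treated cells differed by -0.19 for BAP2 (limma adjusted p = 0.684) and by -0.32 for TAT1 (limma adjusted p = 0.595), neither of which passed the test.

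Dicer loss lowered most features in the spike-in scaling. In dcr1 upf1 against upf1 84.1% of 7727 were called, 83.9% lower and 0.285% higher, and the median feature stood at -3.13 on the log2 scale. In dcr1 CHX against WT CHX 87.7% were called, 87.1% lower and 0.608% higher, and the median was -3.06. Relative to the median XUT0939 stood at -5.17 and BAP2 at -5.31 in dcr1 upf1. In dcr1 upf1 against upf1 146 of 927 XUTs had a lower value than XUT0939, and 5156 of 5267 mRNAs a higher one than BAP2. In dcr1 CHX against WT CHX these numbers were 3 of 927 and 5254 of 5267. TAT1 fell less than the median feature in both. It started at 0.00614 in upf1 and 0.00929 in WT CHX, near the pseudocount of 0.00145. A fall as large as the median was therefore not possible for it on this scale, and its place is not read as a result. Sparse features are limited in the same way, which enters the ranks above. The limit also bears on its turn with equal mRNA medians, to 1.15 (limma adjusted p = 0.00489) in dcr1 upf1 against upf1 and 1.47 (limma adjusted p = 0.00165) in dcr1 CHX against WT CHX. That scaling gave 2295 features higher and 3121 lower in dcr1 upf1 and 1959 higher and 2708 lower in dcr1 CHX, and XUT0939 and BAP2 remained negative in it, at -5.38 and -5.52 in dcr1 upf1. In order of level XUT0939 ran from WT CHX through upf1 and WT to dcr1 CHX and dcr1 upf1, and only the last pair of groups overlapped between libraries.

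The balance of the strands could be read within each library, as a ratio of densities that does not depend on the spike-in. The density of XUT0939 over that of BAP2 was 0.763 and 0.791 in upf1, 0.965 and 0.960 in WT CHX, and 0.785 and 0.846 in WT. Over whole features BAP2 was thus the denser in all 6 Dicer-proficient libraries, and both WT CHX libraries were nearer to 1 than the other 4. XUT0939 includes a stretch not opposite BAP2, which enters this ratio. For CUT1233, nearly all of it opposite BAP2, the ratio to BAP2 was 0.917 and 0.895 in upf1. It was 1.09 and 1.10 in WT CHX and 0.934 and 1.04 in WT. On that measure BAP2 was denser in both upf1 libraries and CUT1233 in both WT CHX libraries, with WT on either side of 1. The test was made on the log2 ratio of XUT0939 to both opposite mRNAs together, weighted by length, with the pseudocount added to each. The nearly empty TAT1 lowers that denominator and makes the ratio positive, so only its differences among upf1, WT CHX and WT are read. BAP2 exceeded TAT1 per nucleotide by 457 times in upf1 and 413 times in WT CHX, but by 8.51 times in dcr1 upf1 and 4.47 times in dcr1 CHX (means, n = 2 each). Without Dicer the share of TAT1 in the denominator was thus larger, and it enters the Dicer differences. At densities near the pseudocount, as without Dicer, this ratio does depend on the scaling. With a pseudocount 10 times smaller its difference in dcr1 upf1 against upf1 was -0.10. The log2 ratio was 0.96 ± 0.0049 in WT CHX and 0.72 ± 0.077 in WT (SD, n = 2 each). For the difference of 0.25 a two-sided, exact permutation test gave p = 0.333. With 2 against 2 libraries none smaller is possible, so this test could not call a difference in any comparison. The numerator is XUT0939, which was chosen by its densities, so the strand ratios are a description. The ratio was 0.65 ± 0.035 in upf1 (SD, n = 2), lower than in WT CHX (-0.31, exact permutation p = 0.333) and overlapping with WT (-0.06, exact permutation p = 0.667). Leaving out a library took that last difference to between -0.12 and -0.0070, lowest without WT replicate 1 and nearest 0 without WT replicate 2. The dcr1 upf1 libraries had density ratios of XUT0939 to BAP2 of 0.547 and 1.24, and the dcr1 CHX libraries of 0.519 and 0.850, on 27 to 49 reads of each feature. These values spread too widely to give a direction in dcr1 upf1 against upf1 (-0.23, exact permutation p = 1), and the ratio was lower in both dcr1 CHX libraries than in both WT CHX libraries (-0.85, exact permutation p = 0.333, or -0.54 without dcr1 CHX replicate 1). The differences in brackets are of the log2 ratio that includes TAT1, so their sizes are not read as strand balance.

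**Figure D4:**
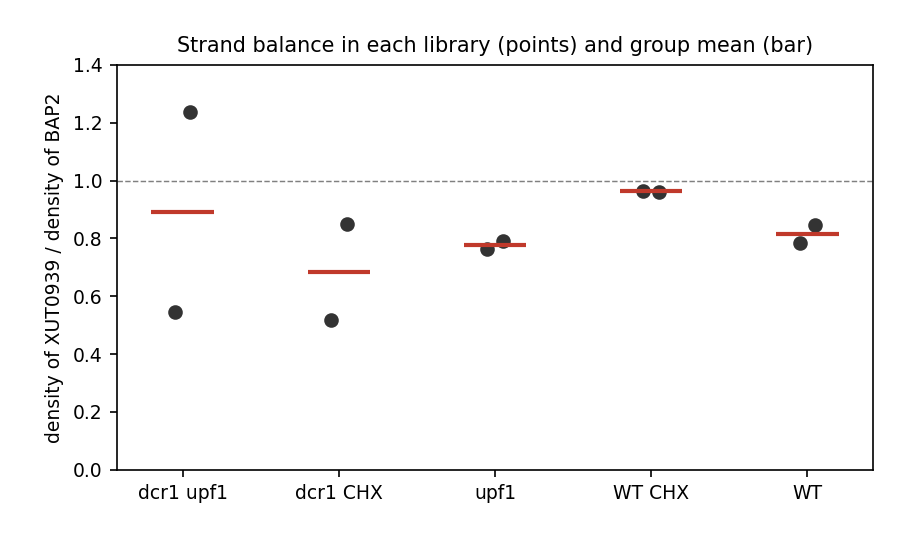
Density of XUT0939 divided by density of BAP2 in each library (points), with the group mean as a bar and a dashed line at 1. The WT CHX libraries (0.965 and 0.960) lie above those of upf1 and WT, and the Dicer-deficient libraries scatter between 0.519 and 1.24 on few reads.

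Along XUT0939 the small RNAs were denser within the nested CUT1233 than in the rest. CUT1233 had 2.47 and 2.42 in upf1, 4.52 and 3.87 in WT CHX and 0.531 and 0.596 in WT. In every library it held fewer reads than XUT0939, which contains it, and the difference was taken as the reads of the other 947 nt, nearly all of them at the end towards TAT1. This rests on reads in CUT1233 being counted for XUT0939 too. That remainder had a density of 1.52 ± 0.212 in upf1, 2.87 ± 0.395 in WT CHX and 0.305 ± 0.000983 in WT (SD, n = 2 each). It was 0.623 ± 0.0960 of the density within CUT1233 in upf1, 0.682 ± 0.0190 in WT CHX and 0.544 ± 0.0461 in WT (SD, n = 2 each). On that basis small RNAs of XUT0939 extended past the end of CUT1233. Part of the remainder is still opposite BAP2, which starts at 286882, whereas CUT1233 starts at 287128. How far towards TAT1 these small RNAs reached was therefore not resolved. TAT1 itself had hardly any on the plus strand, and the stretch between TAT1 and BAP2 has no annotated feature on that strand.

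Other XUTs with an mRNA opposite put both values in context. There were 674 such pairs, with 622 XUTs, of which 51 had more than a single mRNA opposite. In the 127 pairs in which the XUT covers at least 95% of the mRNA, the median density of the mRNA relative to its XUT was 1.06 in upf1, 1.04 in WT CHX and 0.964 in WT. BAP2 stood at 1.29, 1.04 and 1.23 of XUT0939 in these groups, with 38, 63 and 38 of the pairs above it. In the pairs in which at most 5% of the mRNA is covered, 49 in upf1 and WT CHX and 48 in WT, that median was 0.173, 0.414 and 0.364. TAT1 stood at 0.00293, 0.00251 and 0.00698 of XUT0939, with 1, 2 and 1 pairs lower. Both ratios divide by XUT0939, which was chosen by its density, so their place among the pairs follows in part from that choice and is a description. By its own density TAT1 was at 0.384 of the median mRNA in upf1, 0.378 in WT CHX and 0.516 in WT. Pairs can share an mRNA or an XUT, and no test was made of them.

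Outside the overlap the nearest plus-strand gene on the far side of BAP2 is TIP1 (NCAS_0I01540), for a cell wall mannoprotein in S. cerevisiae. It lies 760 nt from XUT0939 and opposite XUT0940. TIP1 had 1.18 and 1.46 in upf1, 0.922 and 0.842 in WT CHX and 0.313 and 0.276 in WT. Its log2 fold change was 2.15 (SE 0.15, limma adjusted p = 1.73e-05) in upf1 against WT and 1.58 (SE 0.15, limma adjusted p = 0.000152) in WT CHX against WT, the last close to the median of all features. XUT0940 rose by 1.78 (SE 0.14) in upf1 and by 1.57 (SE 0.14) with CHX. With equal mRNA medians the values in WT CHX against WT turned to -0.17 for TIP1 and -0.18 for XUT0940, neither called. Unlike BAP2, TIP1 kept 11.7% of its density in dcr1 upf1 against upf1, with 0.162 and 0.146, whereas its opposite strand XUT0940 had 0.000923 and 0.00184. The authors' counting therefore kept the strands apart. Beyond TAT1, seen from XUT0939, the closest minus-strand feature was the recombination gene RDH54, 3470 nt from XUT0939. The closest plus-strand gene before TAT1 was NCAS_0I01490, 9692 nt from XUT0939. RDH54 and NCAS_0I01490 had densities of 0.0107 and 0.0464 in upf1, 0.00521 and 0.00884 in WT CHX and 0.000483 and 0.00173 in WT.

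Among features with a mean density at or above the median of those tested, those whose pattern was most like that of XUT0939 were found by the root-mean-square difference of log2 values, each centred on its own WT mean, over the 10 libraries. BAP2 itself was at 0.29, nearer than any of the 3861 candidates that do not overlap the locus, whose median was 2.21. The mRNA GDT1 on chromosome 2 came next at 0.35, with mean densities of 1.46 in upf1, 2.03 in WT CHX and 0.365 in WT. It has no XUT, CUT or SUT (stable unannotated transcript) annotated opposite, and Dicer-sensitive unstable transcripts (DUTs) were not searched. The nearest lncRNAs were SUT145 at 0.44, opposite ADH5, XUT0089 at 0.501, opposite ERG26, XUT0179 at 0.503, XUT0923 at 0.54, opposite only 2.74% of GCN4, and XUT0253 at 0.55. The next mRNAs were NCAS_0B01570 at 0.53 and AAH1 at 0.56. Of these 8 features SUT145, XUT0089, XUT0179, XUT0923 and GDT1 shared the higher mean in WT CHX than in upf1. The 8 were picked by likeness over these same libraries, so a shared order follows in part from that choice. SUT145, XUT0089, XUT0179 and XUT0923 had a mean density of 0 in dcr1 upf1, where the pseudocount sets their value.

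BAP2 carried far more small RNA than most of its family. Of 18 amino acid permease genes listed, 13 were matched by symbol. Of these 4 had an annotated XUT, CUT or SUT opposite, namely BAP2, TAT1, SSY1 and ALP1. BAP2 was the densest of the 13 in WT, 4.89 times the next, DIP5 (0.117), and in WT CHX, 12.002 times DIP5 (0.320). In upf1 it came second, at 2.70, after the amino acid sensor SSY1 at 2.81, which has XUT0317 and CUT0427 opposite. The median of the other permeases was 0.0300 in upf1, 0.0494 in WT CHX and 0.00801 in WT. TAT1 was 12th of 13 in upf1 and 11th in WT CHX and in WT. Reads that map to several related permease genes were treated in a way not given in the sources used here, so a part of any of these values could come from a paralog.

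**Figure D5:**
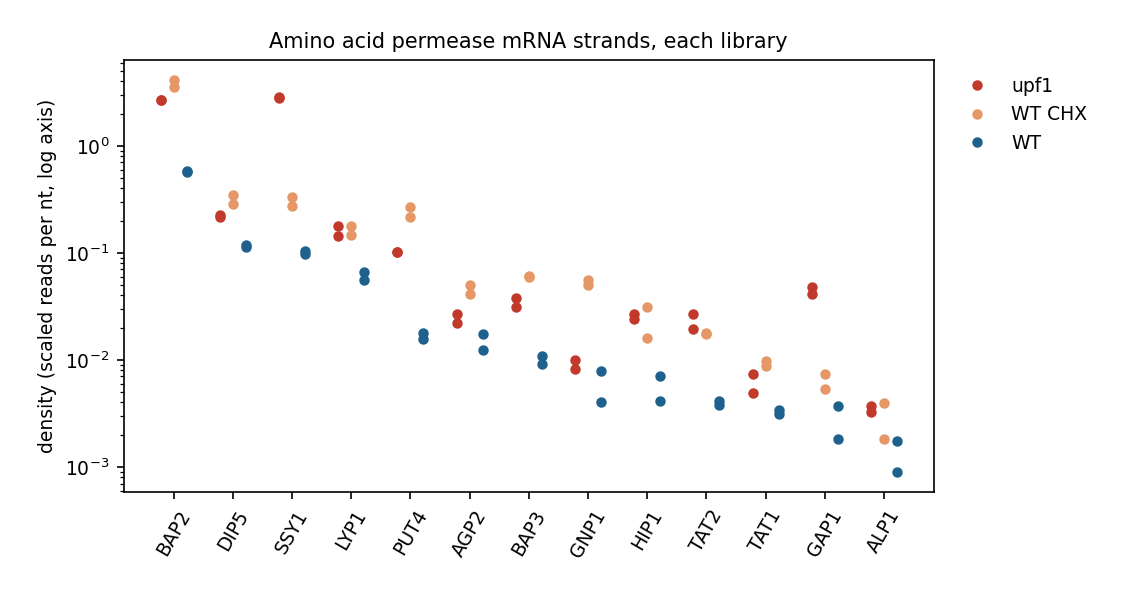
Density on the mRNA strand of 13 amino acid permease genes (scaled reads per nt, log axis) in each upf1, WT CHX and WT library, ordered by their WT mean. BAP2 is the densest in WT CHX and WT, SSY1 rises above it in upf1 (2.81 against 2.70), and TAT1 is among the lowest.

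Of the 13 permeases 9 were called higher in upf1 than in WT, against 57.7% of all features, and none lower. The median of the list was 1.64. With equal mRNA medians, which turned 5 of the 13 negative, the counts became 5 higher and none lower, beside 2155 and 939 of all 7879 features. SSY1 rose most, with 2.77 and 2.85 in upf1 against 0.104 and 0.0971 in WT, a log2 fold change of 4.78 (SE 0.14). It was followed by the general permease GAP1 (3.49, SE 0.35), the proline permease PUT4 (2.51, SE 0.18) and BAP2. The tryptophan permease TAT2 rose by 2.18 (SE 0.29), the histidine permease HIP1 by 1.97 (SE 0.39), BAP3 by 1.64 (SE 0.23), the lysine permease LYP1 by 1.37 (SE 0.20) and the acidic amino acid permease DIP5 by 0.903 (SE 0.15). With equal mRNA medians BAP3, HIP1 and LYP1 kept a positive value without a call, and DIP5 was at -0.29 without a call. AGP2 (0.67, SE 0.27), ALP1 (0.85, SE 0.46), the glutamine permease GNP1 (0.55, SE 0.33) and TAT1 did not pass the test, and all 4 were negative with equal mRNA medians.

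With CHX 12 of the 13 were higher than in WT, against 77.1% of all features, and none lower. The median was 1.57. With equal mRNA medians, which turned 7 negative, the counts became 3 higher and none lower, beside 717 and 1202 of all 7879 features. PUT4 rose most, by 3.75 (SE 0.18), then GNP1 by 2.93 (SE 0.33), BAP2, and BAP3 by 2.42 (SE 0.23). Of these PUT4, GNP1 and BAP2 kept their calls with equal mRNA medians, and BAP3 was at 0.67 without one. TAT2 (1.82, SE 0.29), HIP1 (1.80, SE 0.39), SSY1 (1.57, SE 0.14), AGP2 (1.54, SE 0.27), DIP5 (1.43, SE 0.15), LYP1 (1.39, SE 0.20) and GAP1 (0.918, SE 0.35) also rose, and with equal mRNA medians TAT2 and HIP1 were at 0.07 and 0.04 and the other 5 were negative, none of them called. ALP1 (0.63, SE 0.46) did not pass the test.

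In upf1 against WT CHX, where the call of BAP2 depended on the settings given above, 2 of the 13 permeases were called higher and 6 lower. SSY1 (3.22, SE 0.14) and GAP1 (2.57, SE 0.35) were higher in upf1, beside 21.8% of all features. GNP1 (-2.38, SE 0.33), PUT4 (-1.23, SE 0.18), AGP2 (-0.86, SE 0.27), BAP3 (-0.78, SE 0.23), DIP5 (-0.53, SE 0.15) and BAP2 were lower in upf1, beside 24.0% of all features. With equal mRNA medians 3 were higher and 2 lower, beside 2565 and 873 of the 7879 features, with TAT2 added to the genes higher in upf1 and GNP1 and PUT4 the genes lower. Without Dicer all 13 were lower in dcr1 upf1 against upf1 (median -3.73), beside 83.9% of all features, and in dcr1 CHX against WT CHX (median -3.38), beside 87.1%. With equal mRNA medians 3 were higher and 7 lower in dcr1 upf1 against upf1, beside 2295 and 3121 of all 7727 features. In dcr1 CHX against WT CHX 3 were higher and 5 lower in that scaling, beside 1959 and 2708 of the 7727. SSY1, at -9.25 (SE 0.20), fell more than BAP2 in dcr1 upf1, and BAP2 had the lowest value of the 13 in dcr1 CHX. How far each gene could fall on this scale depended on its starting density, through the pseudocount.

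Genes that act with these permeases were counted in the same way. Of 21 genes for amino acid sensing and permease trafficking, matched from 24 symbols, 11 were higher in upf1 than in WT, beside 57.7% of all features, with a median of 0.77 for the list and 1.198 for all. The counts were 4 higher and 4 lower with equal mRNA medians, beside 2155 and 939 of all 7879 features. After SSY1 the largest rises were in the ubiquitin ligase adaptor BUL1 (4.62, SE 0.19), the nitrogen-responsive activator GAT1 (4.34, SE 0.13) and GCN4, the activator of amino acid biosynthesis genes (2.09, SE 0.20), all of which stayed called with equal mRNA medians. With CHX 20 of the 21 were higher, beside 77.1% of all features, with a median of 1.67 for the list and 1.505 for all. Those still higher with equal mRNA medians were 2, and none was lower, beside 717 and 1202 of all features. The 2 are named next. They were BUL2, a paralog of BUL1, and the sensor protease SSY5, at 2.91 (SE 0.34) and 2.47 (SE 0.15) in the spike-in scaling. LEU3, the activator of branched-chain amino acid synthesis, had the value between them (2.77, SE 0.32), and it was positive without a call in that scaling. Of 13 other amino acid transporters, matched from 17 symbols, 8 were higher in upf1 (median 1.93), beside 57.7% of all features, and 12 with CHX (median 1.88), beside 77.1%. The counts were 4 higher and 2 lower in upf1 and none in either direction with CHX under equal mRNA medians, beside the same counts over all features as for the list before. The largest rises in upf1 were in the GABA permease UGA4 (4.52, SE 0.37), the vacuolar transporter AVT2 (4.30, SE 0.60) and the methionine permease MUP1 (3.95, SE 0.13). In WT UGA4 had densities of 0 and 0.000330 and AVT2 of 0.000362 and 0.00128. These lie below the pseudocount, so the size of both rises depends on it. MUP1, like BAP2, lies whole within an antisense lncRNA, and its densities of 1.06 in upf1 and 0.264 in WT CHX were in the opposite order to those of BAP2.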

How the data were processed

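Small RNA libraries were made with a spike-in of S. pombe RNA per the labels' protocols, and the authors deposited a density signal, reads per nucleotide of each feature scaled to that spike-in. Bowtie, Trim Galore and, for S. pombe, the build ASM294v2 are named in the submitters' processing notes. For N. castellii the build, as well as read lengths counted and handling of multiply mapped reads, is not given in the sources used here. Of 8770 entries, 92 synthetic controls and 271 repeats of another entry were left out, which leaves 8407. Density times length was a whole multiple of a single step per library for 100% of entries (tolerance 0.001 reads), which gave reads and factors. The 5 group means were not used. Symbols came from the RefSeq table of ASM23734v1, which held 5589 of 5600 mRNA identifiers and a symbol for 4484.

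Fold changes were fitted with limma 3.58.1 (R 4.3.3) to log2(density + 0.00145). This pseudocount is the 10th percentile of each library's non-zero densities, taken as the median of the 10 libraries. Groups were fitted by their means, variances were moderated along a trend, and two-sided p-values were adjusted by Benjamini-Hochberg over the features tested, at 0.05. Features whose mean was below the pseudocount were not tested. Comparisons among upf1, WT CHX and WT used the 6 Dicer-proficient libraries in a joint fit, and the Dicer comparisons all 10. P-values measure the spread between these libraries. Reads are not independent molecules, so sparse values carry counting error. The procedure was tested on simulated data. Alternatives varied the pseudocount, filter, scaling, fitted libraries, replicate block and each replicate. Genes were named as members, overlapping or nearest neighbours, list members with the largest changes, all permeases, and the 5 lncRNAs and 3 mRNAs nearest in pattern. The members and lists were chosen with earlier results of these data known. No sequences are printed.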

Additional observations from a re-analysis of the deposited data

How the results depend on the processing

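Depth limits TAT1, which rests on 4 to 25 reads in a library, and the Dicer-deficient values of XUT0939 and BAP2, which rest on 27 to 49. XUT0939 kept its direction and BAP2 its direction and call in upf1 against WT, WT CHX against WT and both Dicer comparisons under all alternatives run. With mRNA-median scaling TAT1 reversed to -0.52 in upf1 against WT, -0.56 in WT CHX against WT, 0.041 in upf1 against WT CHX, 1.15 in dcr1 upf1 against upf1 and 1.47 in dcr1 CHX against WT CHX. In upf1 against WT CHX that scaling gave 0.056 for BAP2, a reversal, and -0.25 for XUT0939, and BAP2 at -0.50 lost its call with all 10 libraries. TAT1 in WT CHX against WT lost its call at 0.92 with tRNA, rRNA and snoRNA scaling. Permeases called were 5 of 13 in upf1 against WT, 3 in WT CHX against WT, 5 in upf1 against WT CHX and 8 in dcr1 CHX against WT CHX with mRNA-median scaling, in place of 9, 12, 8 and 13. They were 5 in upf1 against WT CHX with all 10 libraries, and 8 of the 8 left by the filter in both Dicer comparisons with a pseudocount 10 times larger. The cause of these changes was not tested, except that the larger pseudocount tests fewer genes.

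Leaving out a replicate of upf1, WT CHX or WT gave -0.62 to -0.39 for BAP2 in upf1 against WT CHX, 1.13 to 1.25 for TAT1 in WT CHX against WT, 0.44 to 0.91 for TAT1 in upf1 against WT, -0.75 to -0.28 for TAT1 in upf1 against WT CHX and 4 to 6 permeases called in upf1 against WT CHX. The strand ratio of dcr1 upf1 against upf1, with TAT1 in its denominator, ran from -0.65 to 0.19, and turned positive without dcr1 upf1 replicate 1. That of upf1 against WT ran from -0.12 to -0.0070, and that of dcr1 CHX against WT CHX from -1.16 to -0.54. A lone library was assumed to vary like the other groups.

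Counts over all features moved by over 1.5 times in the scaling splits given with each comparison and as follows. With a pseudocount 10 times larger, 32 were lower in upf1 and 8 in WT CHX against WT, in place of 49 and 13, and 3711 and 3735 were lower in the Dicer comparisons, in place of 6480 and 6728. Features higher in dcr1 upf1 against upf1 were 13 without the filter, and 13 to 28 on leaving out a replicate, in place of 22. With tRNA, rRNA and snoRNA scaling 83 were lower in upf1 and 36 in WT CHX against WT. Leaving out a replicate gave 22 to 35 lower in WT CHX against WT and 866 to 1215 lower in upf1 against WT CHX, in place of 13 and 1891.

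Replicate numbers are shared between groups, but no label says what they pair, and same-numbered libraries did not deviate together (correlations across features of -0.0310 to 0.0202). A replicate block gave 4471 features higher in upf1 against WT and 6021 in WT CHX against WT, and changed no call of BAP2 or TAT1. It left the fold changes of XUT0939 as they were. The planned tests on read counts were not run: the deposited values are densities, and reads were recovered from them only through feature length.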
